A study of Mus musculus with 16 samples.

Results

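Transcripts of the interleukin-1 (IL-1), interleukin-18 (IL-18) and nuclear factor kappa B (NF-kB) pathway were examined in newborn *Man1a2* mice. The 10 genes were taken by symbol, namely the cytokines *Il1a*, *Il1b* and *Il18*, the antagonists *Il1rn* and *Il18bp*, the receptor *Il1r1*, the NF-kB subunits *Nfkb1* and *Relb*, and the NF-kB inhibitors *Nfkbia* and *Tnfaip3*. They were 10 of the 25054 rows in the table of counts, and each symbol occurred once.

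Lung and liver of C57BL/6J pups were sequenced after *Man1a2* heterozygous parents drank N-acetyl cysteine (NAC, a glutathione precursor; 1 g/kg body weight) or water as placebo, from a week before mating until delivery. Live pups were wild type (WT) or heterozygous and dead pups were heterozygous or null, where null pups lack exon 2 of *Man1a2*, a Golgi mannosidase gene of N-glycan processing. Live pups were killed at 24 h, and dead pups were harvested when found within those 24 h, so outcome goes with age at harvest and, for WT and null pups, with genotype. RNA of 3 experiments (2 for dead heterozygous pups) was pooled, which gave 1 library for each pup group, treatment and tissue label, 16 in all. No group held a replicate library, and libraries of different genotype served as replicates below.

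IL-1 alpha and IL-1 beta bind the receptor encoded by *Il1r1*, and through the adaptor MyD88 and IRAK kinases activate the IkB kinases. These kinases mark IkB proteins for degradation, which frees NF-kB dimers to enter the nucleus. NF-kB then induces genes of inflammation and also its own inhibitors, so the pathway carries a negative feedback. IL-1 beta and IL-18 are made as precursors that caspase-1 cleaves within inflammasomes, and thus their transcript level is not the level of active cytokine. In the newborn, the lung has begun air breathing while the liver still forms blood cells, and the liver also makes acute-phase proteins in response to cytokines.

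*Nfkbia*, which encodes IkB alpha, and *Tnfaip3*, which encodes the ubiquitin-editing enzyme A20, are such feedback inhibitors, and their promoters are shown because their levels moved together in 2 of the libraries described below. Among the RefSeq windows of 250 bases before a transcript start (GRCm38.p6), 8 of the 10 genes had at least 1 window, 12 in all, and *Nfkb1* and *Relb* had none. The classical kB consensus, searched on both strands, was found in 2 of the 12 windows, in *Nfkbia* and *Tnfaip3*, against 1643 of 32851 windows (5.0%) over all genes. Capitals mark the match. It lay 29 to 20 bases before the start in *Nfkbia* (chr12:55492648-55492897, minus strand) and 12 to 3 bases before the start in *Tnfaip3* (chr10:19015411-19015660, minus strand). A match of letters describes the sequence and does not show that a factor bound there.
Nfkbia: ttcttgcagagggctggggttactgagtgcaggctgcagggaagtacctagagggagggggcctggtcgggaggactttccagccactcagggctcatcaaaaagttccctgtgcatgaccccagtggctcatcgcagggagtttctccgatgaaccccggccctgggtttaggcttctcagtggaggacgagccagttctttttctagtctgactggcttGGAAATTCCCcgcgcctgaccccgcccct
Tnfaip3: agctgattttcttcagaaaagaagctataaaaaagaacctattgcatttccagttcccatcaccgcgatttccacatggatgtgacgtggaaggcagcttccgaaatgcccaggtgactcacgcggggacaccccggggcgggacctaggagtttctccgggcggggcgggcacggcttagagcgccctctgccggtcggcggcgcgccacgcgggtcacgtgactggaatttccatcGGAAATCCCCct

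Many tissue labels went against the tissue's markers, and therefore libraries were grouped by content. A library had lung content with at least 1000 raw CPM (counts scaled to a library total of 1e+06) of the surfactant gene *Sftpc* and under 1000 of the albumin gene *Alb*, and liver content with at least 50000 CPM of *Alb*. By this rule 7 libraries had lung content and 8 had liver content, and 8 of these 15 carried the label of the other tissue. Both dead null NAC libraries had liver content. Each live NAC library carried the label of its content, and each live placebo library that of the other tissue. Treatment thus goes with labelling among live pups, and the 2 cannot be told apart there. Labels of outcome, genotype and treatment were taken as given and were not checked. The dead null placebo library labelled lung was mixed, with 5553 CPM of *Sftpc* and 9280 CPM of *Alb*, and stayed out of the tests. Summed levels of 12 lung epithelial markers were 10970 to 18430 in lung content and 60.5 to 91.8 in liver content, and those of 12 hepatocyte markers were 186 to 1142 and 167600 to 289900. These sums include *Sftpc* and *Alb*, which set the contents, so they are not an independent check of the grouping. Libraries are named below by their pup group, treatment and label, so that "live WT NAC labelled liver" gives the label and the text gives the content.

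Libraries held 7236865 to 16107749 counts, and the ribosomal transcript *Rn45s* took 4.05% to 26.2% of them in lung content and 0.846% to 6.29% in liver content. *Man1a2* was at 34.3 to 60.3 scaled CPM in dead null libraries and 29.8 to 75.3 in the others, and reads of the deleted exon are not separated in counts by gene. Levels below are CPM after edgeR's TMM scaling over the 16 libraries. Tests are edgeR's quasi-likelihood test over 15 libraries and 15385 genes, with outcome and treatment as terms within each content, and a gene was called at a Benjamini-Hochberg adjusted p-value under 0.05. All 10 genes passed the filter on low counts. The p-values measure the spread between pooled libraries that also differ in genotype.

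Between lung and liver content, most IL-1 and IL-18 genes were lower in lung content and most of the NF-kB genes were higher. Of the 10 genes, 5 were called lower in lung content (*Il1a*, *Il1rn*, *Il1r1*, *Il18* and *Il18bp*), 3 were called higher (*Nfkb1*, *Nfkbia* and *Relb*), and *Il1b* and *Tnfaip3* were not called. Over all genes tested, 36.7% were called higher in lung content and 39.1% higher in liver content, so a call in this comparison was common. The contents did not overlap for 5 of the 10 genes, against 48.4% of all genes tested. DESeq2 called 9 of the 10. The median log2 fold change (log2FC) of lung over liver content was -0.67 for the 10 genes and -0.06 for all genes tested. In bulk RNA, fewer cells of a type and less RNA per cell cannot be told apart.

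**Figure D1:**
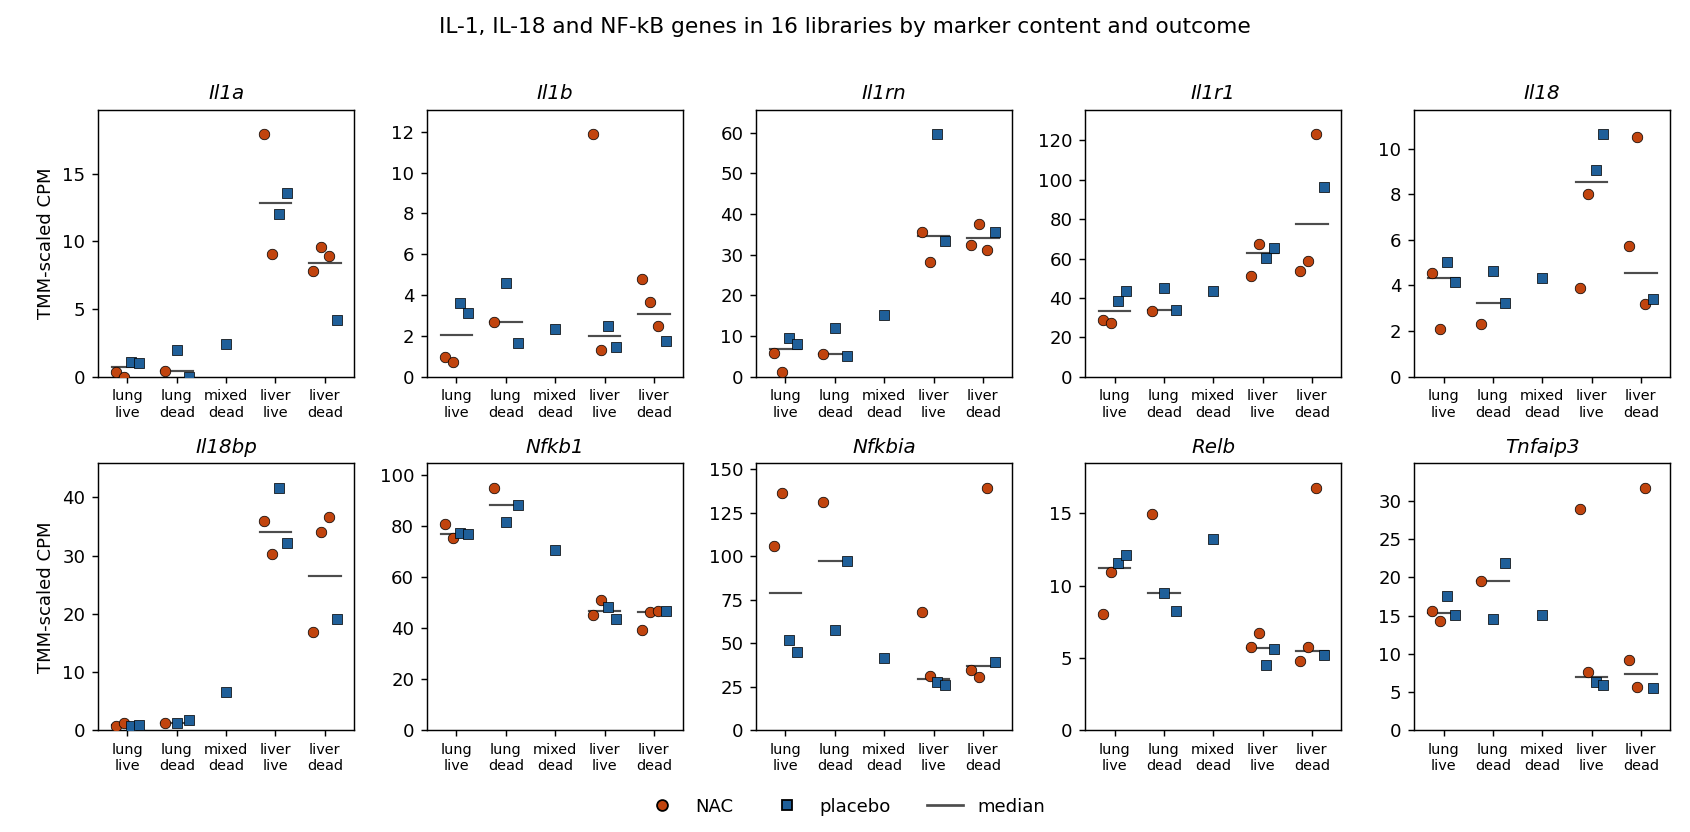
Level of each of the 10 genes (vertical axis, TMM-scaled CPM, from 0) in the 16 libraries, set apart by content (lung, mixed, liver) and outcome (live, dead). Circles are NAC libraries, squares are placebo libraries and bars are medians. *Il18bp* lay at 0.793 to 1.78 in lung content and 16.9 to 41.7 in liver content, and *Nfkbia*, *Relb* and *Tnfaip3* each had a liver-content point far above its group median.

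*Il1a* (chromosome 2, 129299610 to 129309972, minus strand, GRCm38, as are all positions here) encodes IL-1 alpha, an alarmin held in cells and released on damage. In the 7 lung-content libraries its level ran from 0 to 1.95 CPM with a median of 0.430. In the 8 liver-content libraries it ran from 4.18 to 17.9 with a median of 9.32, and the contents did not overlap. The level was 16.7-fold lower in lung content (log2FC -4.06, SE 0.49, edgeR adjusted p = 3.95e-06). The lung-content counts were small, 64 in all 7 libraries together and 0 in 2 of them (live heterozygous NAC labelled lung and dead null placebo labelled liver), against 53 to 193 in each liver-content library. Of the exon bases of *Il1a*, 11.2% overlap *Gm14023* on the other strand, and it is not stated whether counting used strand.

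*Il1b* (chromosome 2, 129364570 to 129371139, minus strand) encodes the inducible, inflammasome-processed IL-1 beta. It ran from 0.700 to 4.57 CPM in lung content (median 2.66) and from 1.30 to 11.9 in liver content (median 2.47), so the contents overlapped. The difference was not called (log2FC -0.39, SE 0.442, edgeR adjusted p = 0.431). The liver-content range was set by the live WT NAC library labelled liver at 11.9, while the other 7 ran up to 4.79.

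*Il18* (chromosome 9, 50554827 to 50581840, plus strand) encodes the other cytokine that caspase-1 matures, known for inducing interferon gamma. It ran from 2.10 to 5.02 CPM in lung content and from 3.18 to 10.6 in liver content, with medians of 4.15 and 6.87. The ranges overlapped, and the gene was called 1.93-fold lower in lung content (log2FC -0.95, SE 0.322, edgeR adjusted p = 0.0159). The call was lost without the dead heterozygous NAC library labelled liver (log2FC -0.88, edgeR adjusted p = 0.0616), with library size alone as scaling (log2FC -0.29, edgeR adjusted p = 0.469), and with pup group and treatment as a block (log2FC -0.78, edgeR adjusted p = 0.101).

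Both antagonists were higher in liver content. *Il1rn* (chromosome 2, 24336853 to 24351494, plus strand) encodes the receptor antagonist that occupies the IL-1 receptor without signalling. Its level was 1.12 to 12.1 CPM in lung content (median 5.79) and 28.3 to 59.7 in liver content (median 34.5), with no overlap and a 6.05-fold lower level in lung content (log2FC -2.60, SE 0.291, edgeR adjusted p = 1.9e-06). *Il18bp* (chromosome 7, 102014885 to 102018690, minus strand) encodes the secreted binding protein that neutralizes IL-18. It had the largest difference of the 10 genes, 0.793 to 1.78 CPM in lung content (median 1.19) against 16.9 to 41.7 in liver content (median 33.2), 26.1-fold lower in lung content (log2FC -4.71, SE 0.247, edgeR adjusted p = 8.87e-10). In liver content the median of *Il18bp* therefore exceeded that of *Il18* per kilobase of exon (10.96 and 6.67 CPM per kb), while in lung content it was below it (0.392 and 4.03 CPM per kb).

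*Il1r1* (chromosome 1, 40225080 to 40317257, plus strand) encodes the signalling receptor shared by IL-1 alpha and IL-1 beta. It ran from 27.3 to 44.9 CPM in lung content and from 51.0 to 123 in liver content, without overlap. It was 2.07-fold lower in lung content (log2FC -1.05, SE 0.18, edgeR adjusted p = 0.000114). With library size alone as scaling, which moved the all-gene median log2FC from -0.06 to 0.60, *Il1r1* was not called (log2FC -0.37, edgeR adjusted p = 0.0809).

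*Nfkb1* (chromosome 3, 135584655 to 135691547, minus strand) encodes p105, the precursor of the p50 subunit. Its highest and lowest libraries were the closest of the 10 genes within each content, at 75.3 to 95.0 CPM in lung content and 39.3 to 51.0 in liver content, 1.82-fold higher in lung content without overlap (log2FC 0.86, SE 0.0937, edgeR adjusted p = 1.42e-06). *Relb* (chromosome 7, 19606217 to 19629438, minus strand) encodes a subunit of the non-canonical pathway, and lay at 8.01 to 15.0 CPM in lung content and 4.54 to 16.8 in liver content. It was called 1.70-fold higher in lung content (log2FC 0.77, SE 0.269, edgeR adjusted p = 0.019). This call was lost without the dead heterozygous NAC library labelled liver (log2FC 0.52, edgeR adjusted p = 0.139) and without the dead heterozygous placebo library labelled liver (log2FC 0.68, edgeR adjusted p = 0.0644).

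*Nfkbia* (chromosome 12, 55489410 to 55492647, minus strand) lay at 44.7 to 136 CPM in lung content (median 97.5) and at 25.8 to 139 in liver content (median 32.8). It was called 2.09-fold higher in lung content (log2FC 1.07, SE 0.315, edgeR adjusted p = 0.00719). *Tnfaip3* (chromosome 10, 19000910 to 19015657, minus strand) lay at 14.3 to 21.9 CPM in lung content (median 15.6) and at 5.53 to 31.8 in liver content (median 6.997). The difference missed the threshold (log2FC 0.79, SE 0.354, edgeR adjusted p = 0.0552). In liver content 6 libraries ran from 5.53 to 9.16, all below the lowest lung-content library, and the other 2 stood at 28.96 and 31.8, above all lung-content libraries. Leaving out either 1 of these 2 brought the call (edgeR adjusted p = 0.0177 without live WT NAC labelled liver, and 0.00336 without dead null NAC labelled lung), as did DESeq2 (adjusted p = 0.0198).

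**Figure D2:**
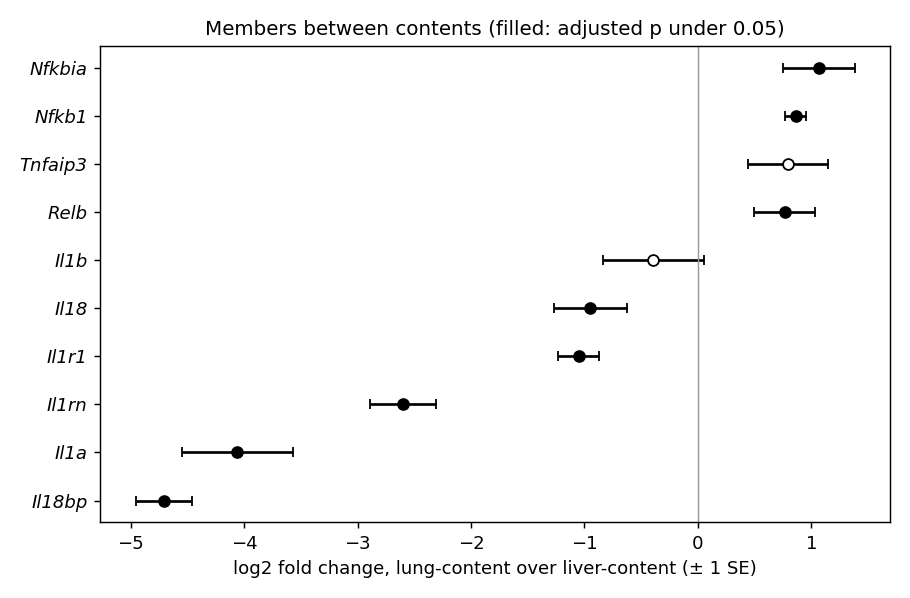
Log2 fold change of lung over liver content for the 10 genes (horizontal axis, with bars of 1 SE), in order of size. Filled points had an edgeR adjusted p-value under 0.05 and open points did not. The 3 called genes to the right of 0 are NF-kB genes and the 5 called genes to the left belong to the IL-1 and IL-18 arm, from -0.95 for *Il18* to -4.71 for *Il18bp*.

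Per kilobase of exon, *Nfkbia* was the most abundant of the 10 in both contents, with medians of 60.5 CPM per kb in lung content (range 27.8 to 84.6) and 20.3 in liver content (range 16.01 to 86.6), apart from the next gene by median in each. In liver content its range still overlapped that of *Il1r1*, which reached 19.4 CPM per kb. In lung content *Nfkb1* (6.70), *Il1r1* (5.33), *Il18* (4.03), *Relb* (2.81), *Tnfaip3* (2.16), *Il1b* (1.40), *Il1rn* (1.04), *Il18bp* (0.392) and *Il1a* (0.218) followed by their median CPM per kb. In liver content the order of medians was *Il18bp* (10.96), *Il1r1* (9.87), *Il18* (6.67), *Il1rn* (6.23), *Il1a* (4.72), *Nfkb1* (3.84), *Relb* (1.46), *Il1b* (1.30) and *Tnfaip3* (0.968). Below *Nfkbia*, the ranges of every pair of neighbours overlapped in either content. *Nfkb1* thus stood second in lung content and seventh in liver content.

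Markers of blood cells moved with the same contrast, in which 39.1% of all genes tested were called higher in liver content. Summed levels of 12 neutrophil markers were 130.2 to 299 CPM in lung content and 2699 to 5225 in liver content, and 11 of the 12 were called higher in liver content. Summed levels of 12 macrophage and Kupffer cell markers were 69.5 to 214 and 824 to 1297, with all 12 called higher in liver content. Summed levels of 8 lymphoid markers were 4.90 to 16.9 and 39.4 to 105. Summed levels of erythroid markers overlapped, at 7510 to 19260 CPM in lung content and 11320 to 74180 in liver content. Of these markers, 8 were tested and 8 were called higher in liver content. *Ly6g* was at 0 in some lung-content libraries, as were *Vsig4*, *Clec4f* and *Timd4*. The part of these cells in the levels of *Il1a*, *Il1rn* and *Il18bp* was not tested.

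The wider pathway was described by 6 lists. Between contents, 36.7% of all genes tested were called higher in lung content and 39.1% higher in liver content, and each list count is to be read beside these shares. In the IL-1 family list, 8 of 13 ligands, receptors and decoys were tested, and 3 were called higher in lung content and 4 higher in liver content. *Il18r1*, the ligand-binding chain of the IL-18 receptor, ran from 19.6 to 66.2 CPM in lung content and from 0.794 to 2.47 in liver content (log2FC 4.93, SE 0.239, edgeR adjusted p = 4.36e-10). The receptor gene thus stood highest in the content where *Il18bp* stood lowest. *Il1rl1*, the receptor of IL-33, went the other way, at 1.07 to 2.58 CPM in lung content and 4.89 to 18.2 in liver content (log2FC -2.63, SE 0.347, edgeR adjusted p = 9.58e-06), whereas its ligand *Il33* was at 5.32 to 59.2 in lung content and 1.09 to 2.64 in liver content.

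Of the 15 adaptors and kinases, 1 was called higher in lung content (*Map3k7*, which encodes the kinase TAK1, log2FC 0.31, SE 0.0945), 6 were called higher in liver content and 8 were not called. The largest of the 6 was *Tirap*, an adaptor of Toll-like receptors, at 10.98 to 19.9 CPM in lung content and 21.9 to 44.1 in liver content (log2FC -0.97, SE 0.159). Inflammasome and pyroptosis genes were lower in lung content for 9 of 12, with only *Nek7* called higher (log2FC 0.30, SE 0.122). *Casp1*, the protease that matures IL-1 beta and IL-18, ran from 0.560 to 2.68 CPM in lung content and from 4.03 to 7.38 in liver content. *Nlrp6*, a sensor of the NLR family, had 11 counts in all 7 lung-content libraries together and 671 to 2443 counts in each liver-content library.

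Among the 11 other NF-kB subunits and inhibitors, 3 were called higher in lung content, 3 higher in liver content and 5 were not called. The shares over all genes tested were 36.7% and 39.1%. *Nfkbiz*, an inducible nuclear IkB protein, had the largest difference toward lung content (log2FC 0.85, SE 0.294, edgeR adjusted p = 0.0172) and *Nfkbid* the largest toward liver content (log2FC -1.70, SE 0.282, edgeR adjusted p = 8.43e-05). Of 20 NF-kB target genes, 16 were tested, 5 were called higher in lung content, 4 higher in liver content and 7 were not called. *Csf2*, which encodes the growth factor GM-CSF, had 178 counts in lung content and none in any of the 8 liver-content libraries, at least 69.9-fold higher in lung content against a floor of 3 counts over the liver-content group. *Cxcl10*, a chemokine gene, ran from 0.111 to 0.762 CPM in lung content and from 6.24 to 22.3 in liver content (log2FC -4.55, SE 0.41). Acute-phase genes, which the liver makes, were called higher in liver content for 11 of 12 tested, and *Apcs* ran from 632 to 1057 CPM there with 23 counts in lung content.

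Whether the pathway differed between pups that died and pups that lived was asked within each content. In lung content (3 dead and 4 live libraries), edgeR called 0 of the 10 genes and 0% of all genes. At an unadjusted p-value under 0.05 there were 0 of the 10 and 313 of 15385 genes. DESeq2 called 6 genes in all and gave no adjusted p-value for any of the 10, so it made no decision on them. The median log2FC of dead over live was 0.22 for the 10 genes and -0.0026 for all genes tested. *Il1b* was at 2.66, 4.57 and 1.67 CPM in the dead heterozygous NAC, dead heterozygous placebo and dead null placebo libraries, against 0.979, 0.700, 3.60 and 3.11 in live WT NAC, live heterozygous NAC, live WT placebo and live heterozygous placebo (log2FC 0.54, SE 0.628, edgeR adjusted p = 1). The dead and live ranges overlapped, and the highest value was the dead heterozygous placebo library. *Nfkb1* was the only gene of the 10 whose groups did not overlap, at 81.3 to 95.0 CPM in dead and 75.3 to 80.8 in live libraries, against 2.81% of all genes tested, a difference that was not called (log2FC 0.20, SE 0.135, edgeR adjusted p = 1).

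In liver content (4 dead and 4 live libraries), where the 2 dead null NAC libraries come from the same pup group and treatment and may share pups, 0 of the 10 genes were called by edgeR, against 0.104% of all genes (16 genes). No gene of the 10 had an unadjusted p-value under 0.05, against 1304 of 15385, and DESeq2 called 0 of the 10 and 66 genes in all. Dead and live groups overlapped for all 10 genes, and did not for 2.58% of all genes tested. *Il1a* was at 7.82, 9.55, 8.93 and 4.18 CPM in the dead heterozygous NAC, dead null NAC labelled liver, dead null NAC labelled lung and dead heterozygous placebo libraries. In live pups it was at 17.9, 9.09, 12.0 and 13.6 CPM in WT NAC, heterozygous NAC, WT placebo and heterozygous placebo. Only the live heterozygous NAC library lay within the dead range, and the difference was not called (log2FC -0.96, SE 0.534, edgeR adjusted p = 0.612). *Il1r1* was at 123 and 96.3 CPM in the dead null NAC labelled lung and dead heterozygous placebo libraries, while the other 6 libraries ran from 51.0 to 67.6 (log2FC of dead over live 0.48, SE 0.241, edgeR adjusted p = 0.593).

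The difference of the dead-live contrast between the contents was called for 0 of the 10 genes by edgeR and 0 by DESeq2, against 0.0065% of all genes (1 gene). At an unadjusted p-value under 0.05 it held 1 of the 10, *Il18bp* (log2FC 0.61 in lung content and -0.45 in liver content, edgeR adjusted p = 0.901 for the difference), and 695 of all genes. The 3 dead lung-content libraries had *Il18bp* at 1.29, 1.19 and 1.78 CPM and the 4 live ones at 0.793 to 1.26. In a simulation with 200 genes changed 4-fold, edgeR recovered 82.5% of them for dead against live in lung content and 89.5% in liver content. The 10 genes differed by 1.02-fold to 1.94-fold between dead and live. Changes below 4-fold were not simulated, so the simulation does not bear on differences of that size.

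**Figure D3:**
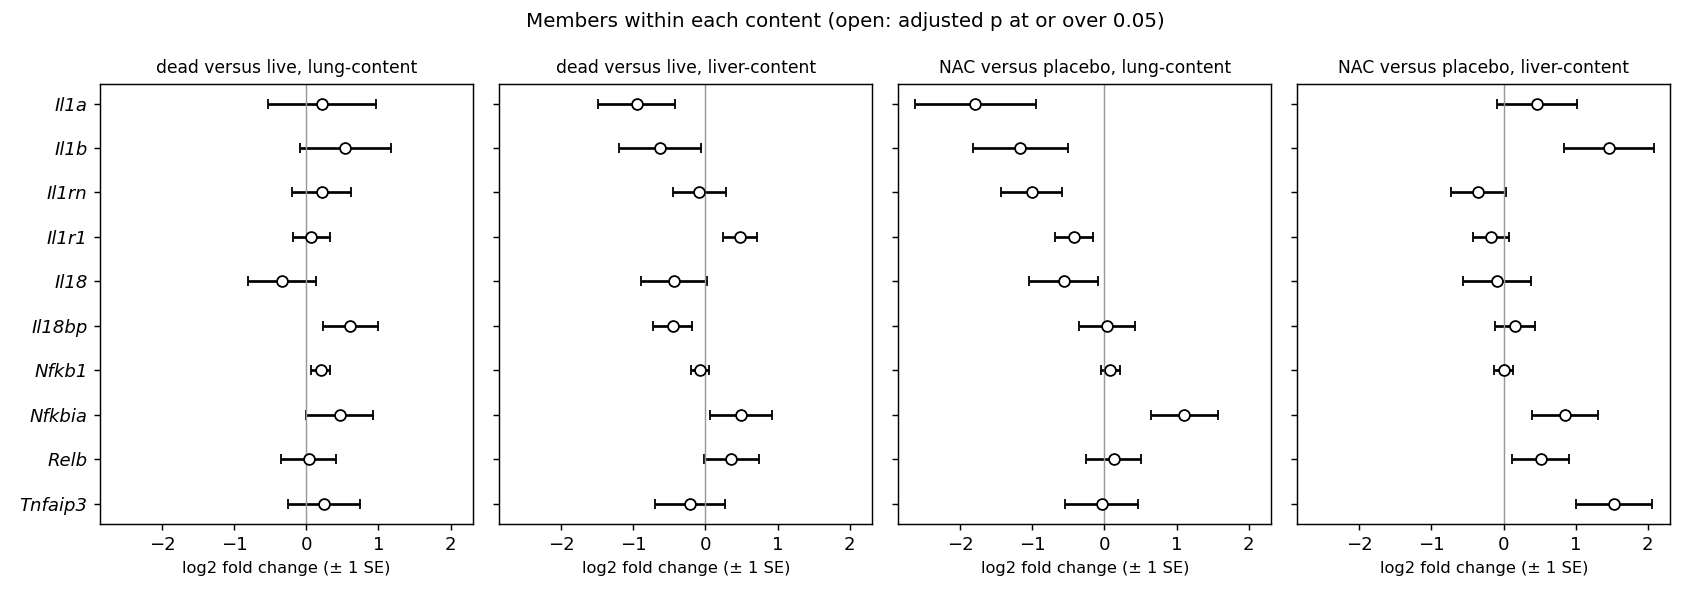
Log2 fold changes of the 10 genes (horizontal axis, bars of 1 SE) for dead over live and for NAC over placebo, within lung content and within liver content. All points are open, since none had an edgeR adjusted p-value under 0.05. With NAC, *Il1a*, *Il1b* and *Il1rn* lay to the left of 0 in lung content (-1.79, -1.17 and -1.01), and *Tnfaip3* and *Il1b* lay to the right in liver content (1.53 and 1.46).

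NAC was compared with placebo in the same way. In lung content (3 NAC and 4 placebo libraries), edgeR called 0 of the 10 genes against 1.12% of all genes (172 genes). At an unadjusted p-value under 0.05 there were 2 of the 10, *Il1rn* and *Nfkbia*, and 3537 of all genes, and DESeq2 called 0 of the 10 and 1330 genes in all. *Nfkbia* was at 106, 136 and 131 CPM in the live WT, live heterozygous and dead heterozygous NAC libraries, and at 51.6, 44.7, 57.5 and 97.5 in the placebo libraries, given as live WT and heterozygous and then dead heterozygous and null. The groups did not overlap, as for 27.6% of all genes tested, and the ratio of their medians was 2.41 (log2FC 1.11, SE 0.46, edgeR adjusted p = 0.178). A fit on the lung-content libraries alone called it at the same size (log2FC 1.11, SE 0.22, edgeR adjusted p = 0.0245). That fit called 1860 genes in all, against 172 in the main fit.

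*Il1a*, *Il1b*, *Il1rn* and *Il1r1* had a negative log2FC with NAC in lung content, without a call. This did not hold for every IL-1 family gene, and *Il1r2*, given below, went the other way. *Il1rn* was at 5.79, 1.12 and 5.59 CPM in the live WT, live heterozygous and dead heterozygous NAC libraries and at 9.63, 8.04, 12.1 and 5.01 in the placebo libraries in the same order as for *Nfkbia* (log2FC -1.01, SE 0.419, edgeR adjusted p = 0.178). The dead null placebo library fell among the NAC libraries. Without the live heterozygous NAC library labelled lung, which held the fewest counts (7236865) and the largest share of *Rn45s* (26.2%), the log2FC was -0.63 (edgeR adjusted p = 0.456). *Il1a* was at 0.356, 0 and 0.430 CPM in those NAC libraries in turn and at 1.06, 1.04, 1.95 and 0 in those placebo libraries (log2FC -1.79, SE 0.835, edgeR adjusted p = 0.218). These levels rest on 4, 0 and 5 counts with NAC and 20, 12, 23 and 0 with placebo, beside a floor of 3. *Il1a* was called only without the dead null placebo library labelled liver, which held no count of it (log2FC -2.21, edgeR adjusted p = 0.0423). *Il1r1* was at 28.6, 27.3 and 33.4 CPM in the NAC libraries and 38.5, 43.5, 44.9 and 33.9 in the placebo libraries, narrowly without overlap (log2FC -0.42, SE 0.26, edgeR adjusted p = 0.34).

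For NAC against placebo in lung content, edgeR called 172 of 15385 genes and DESeq2 called 1330. An unadjusted p-value under 0.05 was held by 3537, and the groups did not overlap for 27.6% of all genes tested. Counts in this paragraph are to be read beside these. Of the 6 pathway lists, edgeR called only *Sigirr* with NAC in lung content, while DESeq2 called 4 of 8 IL-1 family genes, 1 of 16 NF-kB target genes and 1 of 12 acute-phase genes. *Sigirr* encodes a receptor of the IL-1 family that restrains signalling, and was at 4.36, 3.22 and 4.55 CPM with NAC and 9.20, 8.65, 8.80 and 6.56 with placebo, 2.04-fold lower with NAC (log2FC -1.03, SE 0.227, edgeR adjusted p = 0.0495). The call held in 3 of 15 fits that each left out a library, and without the live heterozygous NAC library labelled lung the log2FC was -0.90 (edgeR adjusted p = 0.238). In the same list, *Il1r2*, the decoy receptor of IL-1, was at 21.2, 17.5 and 11.3 CPM with NAC and 1.005, 0.692, 2.03 and 8.57 with placebo, and was named after its values were seen (log2FC 3.13, SE 1.11, edgeR adjusted p = 0.13, DESeq2 adjusted p = 0.0215). *Il33* and *Il18r1* had log2FC of -1.40 and -0.90 with edgeR adjusted p-values of 0.0952 and 0.0971, and were named for the same reason. Neutrophil markers moved in this contrast too. Their summed level was 234, 282 and 299 CPM with NAC and 130.2 to 169 with placebo, and edgeR called 1 of 12, *Mpo* (log2FC 2.45, edgeR adjusted p = 0.0495, and 0.226 without that same library), with 8 of 12 at an unadjusted p-value under 0.05 and 5 of 12 called by DESeq2. The summed macrophage and Kupffer cell markers overlapped, at 69.5 to 214 with NAC and 125 to 179 with placebo. The summed lymphoid markers did not overlap, at 7.12, 4.90 and 9.71 with NAC and 11.7 to 16.9 with placebo, where edgeR called 0 of 7 tested (3 at an unadjusted p-value under 0.05) and DESeq2 1. The part of these cells in *Nfkbia*, *Sigirr* and *Il1r2* was not tested.

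In liver content (5 NAC libraries, 2 of them dead null, and 3 placebo libraries), edgeR called 0 of the 10 genes and 0% of all genes, and 0 of the 10 with either dead null library left out. The NAC and placebo groups overlapped for all 10 genes, and did not for 1.72% of all genes tested. At an unadjusted p-value under 0.05 there were 2 of the 10, *Tnfaip3* and *Il1b*, and 570 of all genes, and DESeq2 called 0 of the 10 and 7 genes in all. *Tnfaip3* was at 28.96 CPM in live WT NAC labelled liver, 7.63 in live heterozygous NAC, 9.16 in dead heterozygous NAC, 5.65 in dead null NAC labelled liver and 31.8 in dead null NAC labelled lung. In the live WT, live heterozygous and dead heterozygous placebo libraries it was at 6.36, 5.98 and 5.53 (log2FC 1.53, SE 0.528, edgeR adjusted p = 1). Without the 2 highest libraries, a choice made after their values were seen, the log2FC was 0.37 (SE 0.246). *Il1b* was at 11.9, 1.30, 4.79, 3.66 and 2.48 CPM in the same NAC libraries and 2.47, 1.48 and 1.74 in the same placebo libraries (log2FC 1.46, SE 0.623, edgeR adjusted p = 1), and without the live WT NAC library its log2FC was 0.31.

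The change with NAC was also compared between the contents. EdgeR called 0 of the 10 genes and 0% of all genes, with 3 of the 10 and 2009 of all genes at an unadjusted p-value under 0.05, while DESeq2 called 0 of the 10 and 219 genes in all. The 3 were *Il1a*, *Il1b* and *Tnfaip3*. For *Il1b* the log2FC with NAC was -1.17 in lung content and 1.46 in liver content (difference -2.62, SE 0.905, edgeR adjusted p = 0.289). For *Il1a* it was -1.79 and 0.46 (difference -2.25, SE 1.01, edgeR adjusted p = 0.366).

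A pair of liver-content libraries stood apart for some of the inducible NF-kB genes, and was picked out after its values were seen, so that no test is given. They are the live WT NAC library labelled liver and the dead null NAC library labelled lung, which share treatment but neither outcome, genotype nor label. *Tnfaip3* was 4.14 and 4.54 times the median of the 8 libraries in them. The dead null NAC library labelled liver, of the same pup group and treatment as the second of the pair, did not share this. It had *Tnfaip3* at 0.81 and *Nfkbia* at 0.93 times the median. *Nfkbia* was at 67.9 and 139 CPM, and at 25.8 to 39.0 in the other 6. *Relb* was high in the dead null NAC library labelled lung alone, at 16.8 CPM against 4.54 to 6.74 in the other 7. *Nfkb1*, at 45.2 and 46.5 CPM, was inside the range of the other libraries (39.3 to 51.0).

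The same pair was the highest of the 8 for 5 of 11 other NF-kB subunits and inhibitors (*Bcl3*, *Nfkb2*, *Nfkbiz*, *Rel* and *Tnip2*) and for 7 of 16 NF-kB target genes, among them *Cxcl1*, *Cxcl2* and *Icam1*. One of the 7, *Ptgs2*, was near the floor of 3 counts in the pair, at 0.650 and 0.298 CPM. Other targets on the list went the other way. The pair was the lowest for *Sod2*, at 80.7 and 92.0 CPM against 92.5 to 140.9. It was also the lowest for *Traf1*, near the floor, at 0.186 and 0.0992 CPM against 0.239 to 0.699. Over all genes, the pair was the highest for 1252 of 16040 (7.81%). *Rel*, which encodes the subunit c-Rel, was at 6.59 and 16.2 CPM in the pair, in the order given above. It was at 2.07 to 3.95 in the others, and at 2.07 in the dead null NAC library labelled liver. *Cxcl1*, a neutrophil chemokine gene, was at 5.75 and 14.7 CPM against 0.868 to 3.25. The pair was the highest for 0 of 8 other IL-1 family genes, 0 of 15 adaptors and kinases and 1 of 12 inflammasome genes, and for 3 of 12 acute-phase genes (*Itih4*, *Lbp* and *Lcn2*). Beside this, the pair held the highest summed neutrophil markers of liver content, 5225 and 5193 CPM against 2699 to 4786, and was the highest pair for 4 of these 12 markers and for 0 of 12 macrophage and Kupffer cell markers. It also held the highest summed hepatocyte markers, 264200 and 289900 CPM against 167600 to 252400, with *Alb* and *Trf* of 12 highest in it, and the lowest summed lymphoid markers, 39.4 and 53.7 CPM against 66.1 to 105. Their part in the NF-kB genes was not tested.

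**Figure D4:**
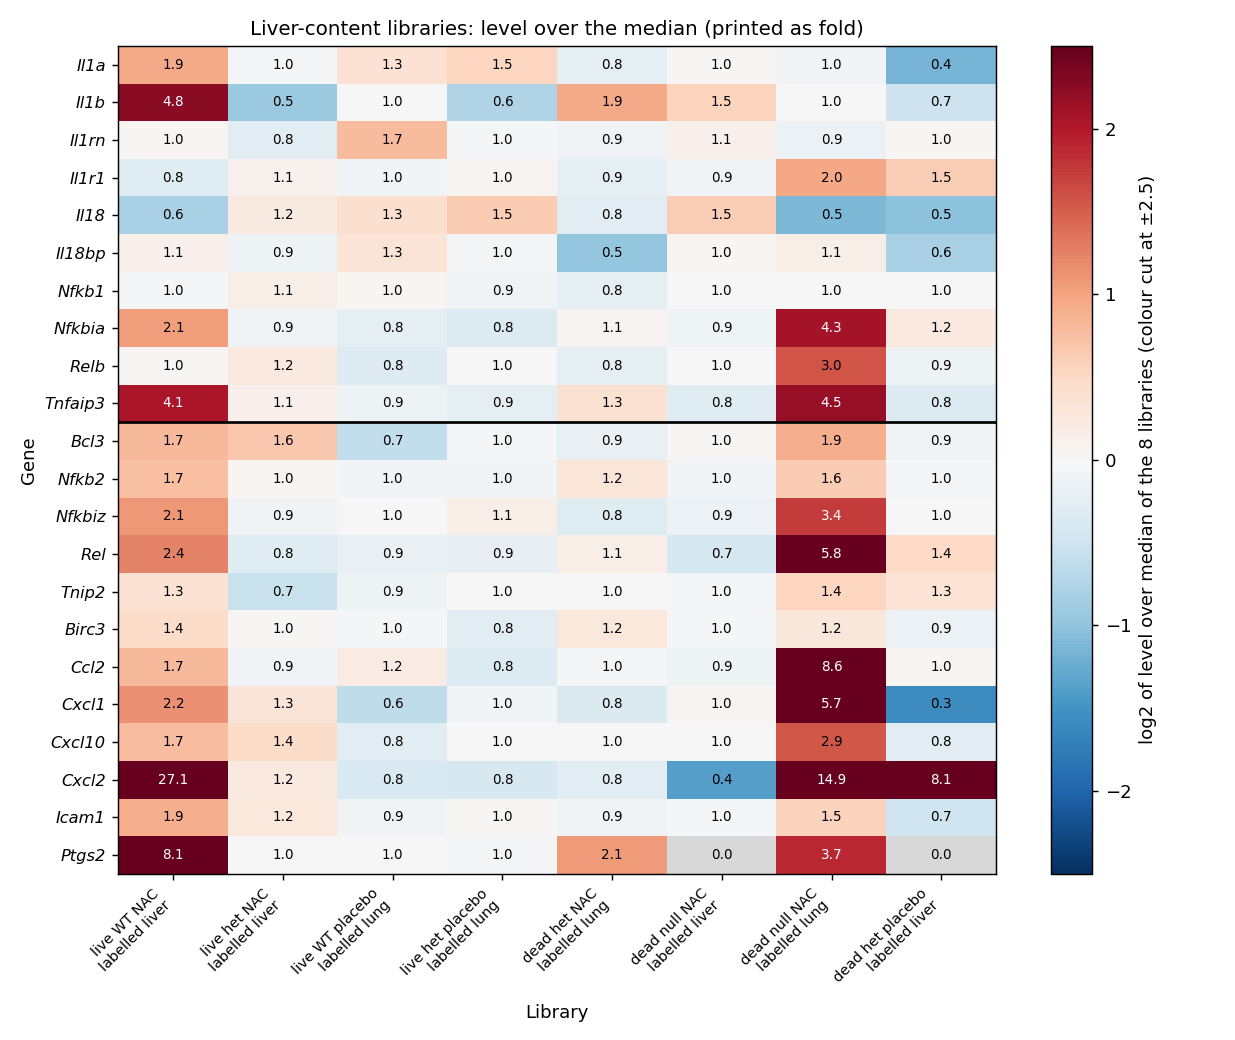
Heatmap of the 8 liver-content libraries (columns) for the 10 genes (above the black line) and 12 further NF-kB genes for which the same pair was highest (below it, chosen for that). Numbers are the level over the median of the 8 libraries, colour is its log2, and grey cells are libraries with no count of *Ptgs2*. *Tnfaip3* reads 4.1 and 4.5 in the live WT NAC column and the dead null NAC column labelled lung. It reads 0.8 to 1.3 elsewhere, and 0.8 in the dead null NAC column labelled liver.

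The mixed library (dead null placebo labelled lung) was examined for the 5 genes whose contents did not overlap. It held *Il1a* at 2.42 CPM, *Il1rn* at 15.3, *Il18bp* at 6.54 and *Nfkb1* at 70.3, each between the highest of the lower and the lowest of the higher content, whereas *Il1r1*, at 43.6, was inside the lung-content range. *Nfkbia* was at 41.8 and *Tnfaip3* at 15.1.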

How the data were processed

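RNA from lung and liver of newborn pups was sequenced in 16 pooled libraries with a stranded poly(A) kit. The authors aligned reads to GRCm38 (mm10) and deposited estimated counts per gene symbol, without normalization, and 6.50% to 8.24% of a library's values were not whole numbers. Their processing notes name R 4.0.3 and edgeR 3.30.3. They kept uniquely mapped reads, and use of strand is not given in the sources used here. Here the values were rounded, and 5613 of 25054 rows were then 0 in every library. Repeated symbols (329 on 962 rows) were kept apart.

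Libraries were grouped by their labels for outcome, genotype and treatment, which were taken as given, and by *Sftpc* and *Alb* for content. EdgeR 4.0.16 in R 4.3.3 was run with TMM factors, filterByExpr and glmQLFTest on 1 fit with a term for each content and, within it, for outcome and treatment. The SE is the log2FC divided by the square root of F. DESeq2 1.42.0 was an alternative, besides other scalings, filters, models and libraries left out. The floor was 3 counts. In simulated data with 200 genes changed 4-fold, the test recovered 165 (dead against live, lung content) to 194 of them (lung against liver content), with 6 to 13 other genes called among 14841 to 15250. Smaller changes were not simulated.

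The 10 genes and the lists were chosen with earlier results of these data known. Named genes are the 10, the called gene with the largest change each way in each pathway list, and those needed to say what a count holds. Of the IL-1 family list, 9 of 13 symbols were in the table. Positions and exon lengths are from GENCODE M21, and promoters from RefSeq. Counts limit the precision of low genes such as *Il1a* and *Il18bp*.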

Additional observations from a re-analysis of the deposited data

Results flagged for a closer look

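In liver content, 4 values stood apart from the other libraries of their gene by Dixon's criterion at 95%, among 20 sets of libraries examined (10 genes in 2 contents). Each set mixed outcomes, treatments and genotypes, and the levels were not log-transformed, so the number expected by chance is not known. *Il1b* was at 11.9 CPM in the live WT NAC library labelled liver, and the next value was 4.79. *Il1rn* was at 59.7 CPM in the live WT placebo library labelled lung, and the next value was 37.6. *Nfkbia* was at 139 CPM in the dead null NAC library labelled lung, and the next value was 67.9. *Relb* was at 16.8 CPM in that same library, and the next value was 6.74. In the mixed library, which entered no comparison, *Relb* was at 13.2 CPM, above the highest live placebo library (12.1) and inside the lung-content range (8.01 to 15.0). The criterion served as a flag, and the cause of these values was not tested.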

How the results depend on the processing

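The labels carry no replicate numbers, and blocks were built from pup group and treatment instead. With pup group and treatment as a block across contents, an alternative chosen after seeing the data that ties the contents in 6 sets, 7 of the 10 genes were called between lung and liver content and *Il18* was lost (log2FC -0.78, edgeR adjusted p = 0.101). With pup group as a block in place of outcome, no gene of the 10 was called with NAC in either content, and *Nfkbia* in lung content had a log2FC of 1.28 (edgeR adjusted p = 0.152). The number of the 10 genes called between lung and liver content was 8, and 6 to 9 when each library was left out. With libraries grouped by tissue label it was 0, and the log2FC of labelled lung over liver turned to 0.54 for *Il1a*, 0.21 for *Il1rn*, 0.054 for *Il1r1*, 0.086 for *Il18*, 0.56 for *Il18bp* and -0.11 for *Nfkb1*. Other alternatives kept the direction of the 8 called genes. *Il1b*, never called, had a log2FC of 0.31 with library size alone. Of the 10 genes, the number called with NAC in lung content was 0, and became 1 (*Nfkbia*) in a separate fit for each content, 1 (*Nfkbia*, edgeR adjusted p = 0.0233) without the 2 liver-content libraries highest in *Tnfaip3*, an alternative chosen after seeing the data, and 0 to 1 when each library was left out. Dead against live in either content, NAC in liver content and both differences between contents gave 0 of the 10 under every alternative run. For dead against live in lung content, however, DESeq2 gave the 10 genes no adjusted p-value. Over all genes, the number called with NAC in lung content was 172, from 0 (without live heterozygous NAC labelled lung) to 901 (without dead null NAC labelled liver) over the libraries left out, 1330 with DESeq2 and 1860 in the separate fit, so the background of that comparison moves with single libraries. For dead against live in liver content it was 16, 1 to 265 over the libraries left out, 66 with DESeq2 and 888 with heterozygous libraries only. The cause was not tested. Depth limits the lung-content values of *Il1a* and *Il18bp*, with 64 and 89 counts over 7 libraries.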
